A study of Mus musculus with 36 samples.

Results

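Levels of 9 genes, Rsrp1, Ppp1r10, Pcf11, Zfc3h1, Polk, Trim11, Phf13, Ankrd52 and Slc9a8, were followed over time in mouse embryonic stem cells. The genes were taken by name from the deposited count table of 54842 genes, and all 9 were among the 18193 genes that passed the filter on low counts, with at least 310 counts for each in every library. They were chosen by their change over time among libraries that saw no light, with the light effect also in view. The changes among dark libraries, and the differences between lit and dark libraries, are therefore given as a description with no test, and tests were made among the lit libraries alone.

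The design asked how LiTEC, a construct for light-induced targeting, and blue light affect transcription. There were 12 groups of 3 libraries each: LiTEC-transfected cells after 30 min on a blue LED panel (LiTEC, lit), LiTEC-transfected cells without light (LiTEC, dark), wild-type cells after the same light (WT, lit) and wild-type cells without light (WT, dark), each with RNA taken 0, 1 or 4 h after that period. Every culture, WT included, had received doxycycline at 2 µg/ml for 2 days and grew in serum-free medium with a MEK inhibitor, a GSK3β inhibitor and leukaemia inhibitory factor (LIF), conditions for naive pluripotency. The sources used here do not say whether the LiTEC cells were a clone or a pool, nor whether replicates of a group came from separate cultures. A p-value thus rests on the scatter of libraries, some of which may be technical. Replicate 1 of each group was in batch 1, and replicates 2 and 3 were in batch 2.

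Total counts ran from 11132970 to 21842256 per library. The summed level of 9 naive pluripotency markers was 2399 to 3955 CPM (counts scaled to library size with TMM factors). That of 6 fibroblast markers was 2.07 to 9.47 CPM. Among these, Lum was at 0 in 34 libraries, while Col1a1 (mean of 2.25 CPM) and Thy1 (mean of 2.30 CPM) had counts in every library. Counts on the ribosomal RNA loci Gm26917 and Gm42418 made up 9.24% to 29.3% of a library (median 11.2%). Replicate 3 of dark WT cells at 4 h (29.3%) and replicate 1 of lit LiTEC cells at 0 h (18.2%) stood apart from the rest. In these bulk libraries, fewer cells that express a gene and less RNA per cell cannot be told apart.

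Several of the 9 genes act where transcription ends and nuclear RNA is sorted. At the end of a gene the nascent transcript is cut and polyadenylated, and Pcf11, which binds the tail of RNA polymerase II, links that cut to termination. PNUTS, the product of Ppp1r10, brings protein phosphatase 1 to the transcription complex at the same step, and ZFC3H1 connects polyadenylated nuclear RNA to the exosome, the nuclease complex that degrades it. Rsrp1 encodes a protein rich in arginine and serine, as the splicing factors of the SR family are. The name RNA processing genes does not hold for the others. Phf13 encodes a reader of trimethylated lysine on histone H3, Trim11 a ubiquitin ligase, Ankrd52 a regulatory subunit of protein phosphatase 6, Polk a translesion DNA polymerase, and Slc9a8 a sodium-proton exchanger of the Golgi and endosomes.

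Promoter sequences are shown for Rsrp1, the gene with the widest gap between lit and dark libraries at 1 h, for Pcf11, one of the genes that peaked at 1 h, and for Polk, one of those lowest at 1 h. They come from RefSeq on GRCm38.p6, which had an entry for 8 of the 9 genes (all but Trim11), and each shows the bases before the gene start of GENCODE M21, 5′ to 3′ on the gene's strand. The windows are chr4:134923375-134923591 on the plus strand, chr7:92669935-92670162 on the minus strand and chr13:96542580-96542829 on the minus strand. Capitals mark matches on either strand to GGGCGG (SP), CCAAT (NF-Y), GCGCATGC (NRF1) and AAGATGGCG (YY1), and the reverse complements appear as written on the gene's strand.
Rsrp1: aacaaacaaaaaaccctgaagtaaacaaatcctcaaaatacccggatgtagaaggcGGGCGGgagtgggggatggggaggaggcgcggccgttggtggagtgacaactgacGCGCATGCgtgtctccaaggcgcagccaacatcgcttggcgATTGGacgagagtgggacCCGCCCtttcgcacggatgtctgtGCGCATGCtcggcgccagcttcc
Pcf11: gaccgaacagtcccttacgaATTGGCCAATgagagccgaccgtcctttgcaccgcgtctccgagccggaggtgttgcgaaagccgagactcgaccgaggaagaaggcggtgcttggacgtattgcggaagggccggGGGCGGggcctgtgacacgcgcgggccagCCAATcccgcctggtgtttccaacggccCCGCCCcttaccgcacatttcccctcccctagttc
Polk: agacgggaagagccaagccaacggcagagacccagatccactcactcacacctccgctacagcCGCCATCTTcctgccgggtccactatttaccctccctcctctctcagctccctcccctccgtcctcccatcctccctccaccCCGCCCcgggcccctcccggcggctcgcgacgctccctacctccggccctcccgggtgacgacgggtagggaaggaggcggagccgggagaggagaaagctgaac
In windows of 250 bases before the RefSeq start, GGGCGG was found in 7 of the 8 genes, against 32.7% of 32851 promoters of the same length. The window of Zfc3h1 held none of the motifs searched. All 250 bases of the Ppp1r10 window lay inside the GENCODE gene, so its matches are not upstream of that gene start. The windows of Phf13 (79 bases), Rsrp1 (33), Pcf11 (22) and Ankrd52 (9) reached into the gene in part. GCGCATGC was found in Rsrp1, in 2 copies, against 2.26% of all promoters, and AAGATGGCG in Polk, against 0.606%. CCAAT was found in 2 windows (Rsrp1 and Pcf11), against 33.8% of all promoters, and TATAAA in 1 window (Ppp1r10), against 12.4%. The letters TGACGTCA (CRE), CACGTG (E-box) and GAANNTTC (heat shock element core) were in none of the 8 windows, against 1.55%, 6.02% and 6.69% of all promoters. The median GC content was 64.2% in the 8 windows and 52.4% in all promoters. No motif searched was in the windows of all genes that peaked at 1 h and absent from the windows of the rest.

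All 9 genes changed over time among lit libraries of both genotypes. Lit libraries were no part of the dark time course, but the light effect was in view when the genes were chosen, so these tests are not independent of that choice. In an F test over 0, 1 and 4 h, 9 of 9 were called in lit LiTEC cells, where 7.81% of all tested genes were called (1420 genes, and 2382 with a replicate block). In lit WT cells 9 of 9 were called as well, where the background was 12.9% (2352 genes, and 3617 with a replicate block). The largest adjusted p among the 9 was that of Phf13 in both genotypes (edgeR adjusted p = 0.0435 in LiTEC and 0.0253 in WT). Its LiTEC call was lost without any one of 8 of the 9 libraries, with adjusted p of 0.0696 to 0.179, and held without replicate 3 at 0 h. Its WT call was lost without replicate 1 at 1 h (0.0528) or replicate 3 at 1 h (0.152). Both Phf13 calls were lost with no batch term (0.154 in LiTEC and 0.0925 in WT) and in batch 2 alone (0.228 in LiTEC and 0.0977 in WT). The Polk call in WT was lost in batch 2 alone (0.0952).

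The genes followed 2 courses. By group means, Ppp1r10, Pcf11 and Slc9a8 were highest at 1 h, whereas Rsrp1, Zfc3h1, Polk, Trim11, Phf13 and Ankrd52 were highest at 4 h. Among the genes highest at 4 h, the 0 h and 4 h libraries overlapped for Phf13 in lit cells of both genotypes. They also overlapped for Polk in lit and in dark WT cells. Between 4 h and 1 h, a difference added after the data were seen and given as values with no test, the 3 libraries at 4 h did not overlap those at 1 h for 9 of 9 genes in lit LiTEC cells (background 20.6%) and 9 of 9 in lit WT cells (background 20.8%). Scaled by exon length, mean levels over all libraries ran from 37.4 CPM per kb for Rsrp1 to 4.53 CPM per kb for Slc9a8. Within a group, the median coefficient of variation over 3 libraries ran from 3.38% for Rsrp1 to 8.48% for Polk.

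**Figure D1:**
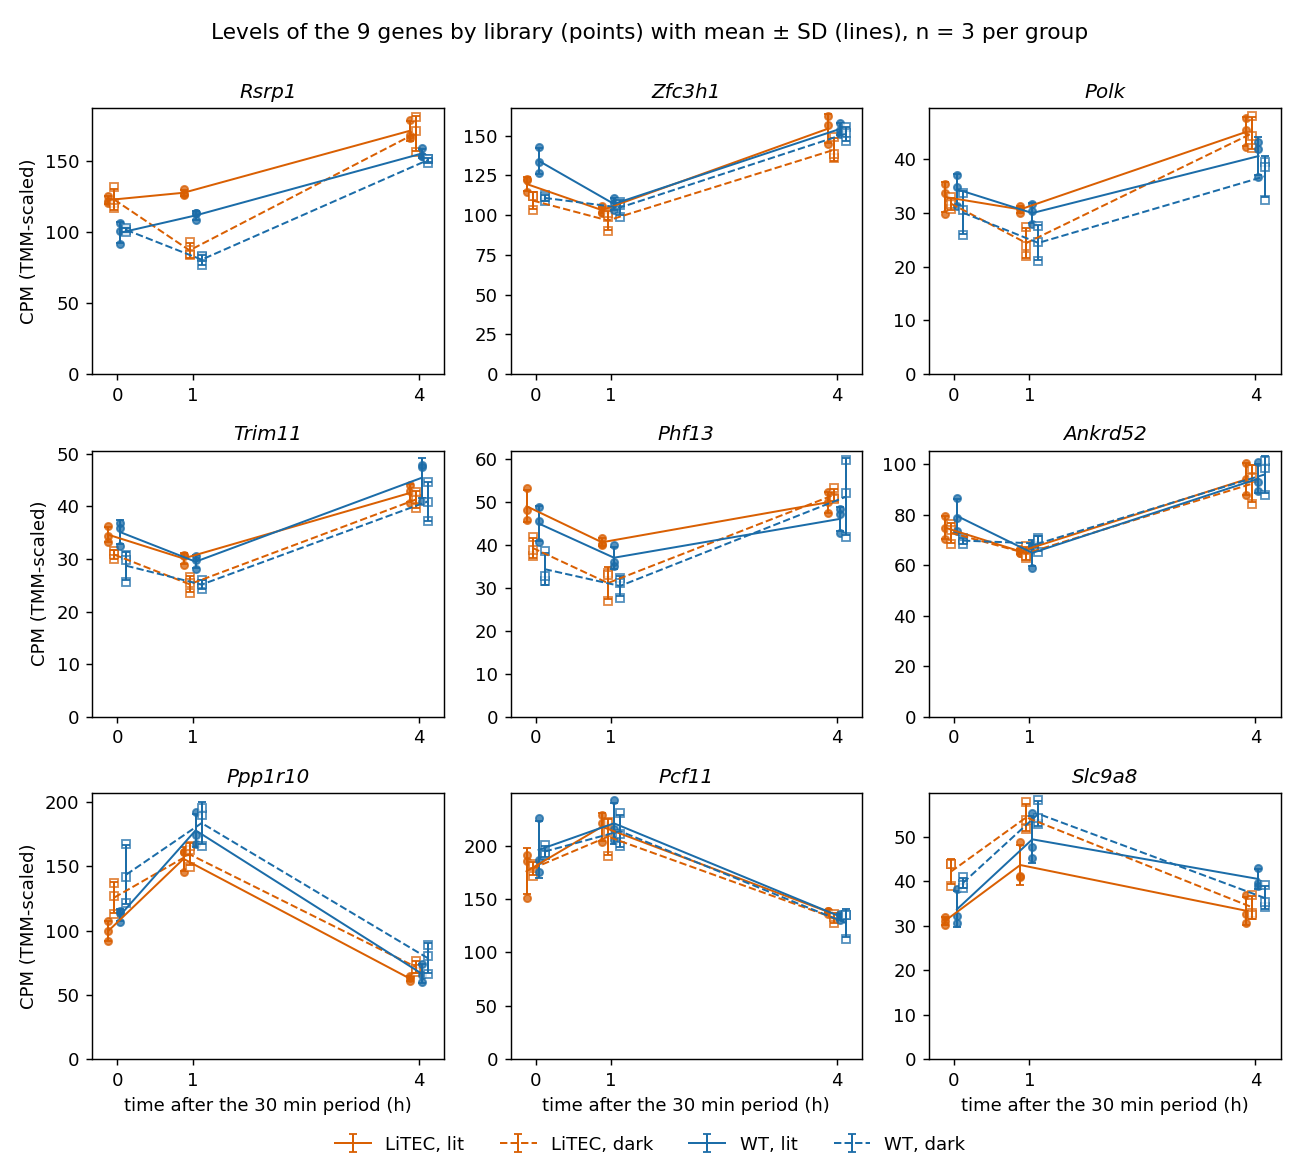
Level of each of the 9 genes in CPM (y axis, from 0) against hours after the 30 min period (x axis), with LiTEC in orange, WT in blue, filled circles and solid lines for lit libraries and open squares and dashed lines for dark ones; points are libraries and lines join group means ± SD (n = 3). Rsrp1 is the gene whose lit and dark lines part most at 1 h, with 128 ± 2.06 CPM in lit LiTEC cells and 87.2 ± 5.25 CPM in dark LiTEC cells, and both meet again at 4 h.

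Ppp1r10 (chr17:35916434-35932283, plus strand of GRCm38) had the widest range of the 9, with a highest group mean 2.93 times the lowest. In lit LiTEC cells, replicates 1 to 3 stood at 91.7, 107 and 99.9 CPM at 0 h, 161, 145 and 161 CPM at 1 h and 60.5, 63.2 and 64.5 CPM at 4 h. The lit WT values were 114, 107 and 116 CPM at 0 h, 174, 168 and 192 CPM at 1 h and 65.5, 59.7 and 74.2 CPM at 4 h. In both genotypes the 3 times did not overlap, with the 1 h libraries on top and the 4 h libraries at the bottom. Relative to 0 h the gene rose at 1 h by a log2 difference of 0.65 ± 0.10 in LiTEC (SE; edgeR adjusted p = 0.000132) and of 0.67 ± 0.10 in WT (adjusted p = 3.57e-05). It fell at 4 h, with log2 fold changes of -0.66 ± 0.10 in LiTEC (adjusted p = 0.000168) and -0.75 ± 0.10 in WT (adjusted p = 9.05e-06). For 4 h minus 0 h the mean log2 difference in LiTEC was -0.60 in batch 1 and -0.69 in batch 2, and in WT it was -0.79 in batch 1 and -0.73 in batch 2. In batch 2 alone, with 2 libraries a group, neither LiTEC call passed (adjusted p = 0.0818 at 1 h and 0.0537 at 4 h).

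By group means, dark libraries gave Ppp1r10 the same order. In dark LiTEC cells it stood at 113, 127 and 137 CPM at 0 h, 162, 149.6 and 166 CPM at 1 h and 76.7, 68.0 and 70.5 CPM at 4 h. Dark WT cells had 142, 121 and 167 CPM at 0 h, 189.8, 165 and 196 CPM at 1 h and 80.3, 66.2 and 89.1 CPM at 4 h. At 0 h each lit library lay below each dark library of its genotype, with a log2 light minus dark difference of -0.34 ± 0.10 in LiTEC and -0.36 ± 0.10 in WT. The WT value was -0.48 without dark replicate 2 and -0.24 without dark replicate 3. At 1 h the difference was -0.03 ± 0.10 in LiTEC and -0.05 ± 0.10 in WT, and lit and dark libraries overlapped. At 4 h it was -0.19 ± 0.10 in LiTEC and -0.24 ± 0.10 in WT, and the WT value was -0.13 ± 0.11 without dark replicate 3 and -0.35 ± 0.10 without dark replicate 2. The step from 0 h to 1 h was thus larger in lit than in dark libraries in size, where it was 0.34 ± 0.10 in dark LiTEC and 0.36 ± 0.10 in dark WT (0.24 without replicate 2 and 0.48 without replicate 3 at 0 h). The difference of these steps was not tested.

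Pcf11 (chr7:92643543-92669934, minus strand) had the highest mean CPM of the 9 genes. Lit LiTEC libraries held 151, 191 and 185 CPM at 0 h, 203, 229 and 221 CPM at 1 h and 136, 139 and 139 CPM at 4 h. Lit WT libraries held 175, 226 and 186 CPM at 0 h, 205, 242 and 215 CPM at 1 h and 134, 131 and 136 CPM at 4 h. The 4 h libraries were the lowest in both genotypes and overlapped no earlier one, and in WT the 0 h and 1 h libraries overlapped because replicate 2 at 0 h was high. At 4 h relative to 0 h Pcf11 fell, with log2 fold changes of -0.34 ± 0.07 in LiTEC (edgeR adjusted p = 0.00665) and -0.55 ± 0.07 in WT (adjusted p = 9.05e-06). The LiTEC call at 4 h did not pass with no batch term (adjusted p = 0.0518). At 1 h it rose in LiTEC by a log2 difference of 0.31 ± 0.07 (adjusted p = 0.0132), a call lost without replicate 1 at 0 h (0.139) or replicate 2 at 1 h (0.0684) and with no batch term (0.082). The value in WT was 0.17 ± 0.07 (adjusted p = 0.189), which passed without replicate 2 at 0 h (0.0368).

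In dark libraries Pcf11 had group means of 179 ± 5.86, 208 ± 16.7 and 132 ± 4.51 CPM at 0, 1 and 4 h in LiTEC, and of 194 ± 5.42, 214 ± 15.3 and 127 ± 13.3 CPM in WT (SD, n = 3 each). Light minus dark stayed between -0.03 and 0.06 on the log2 scale at all 3 times in both genotypes, each within its SE of 0.07 of 0. Single libraries moved the WT values: at 4 h it was 0.15 ± 0.08 without dark replicate 1 and -0.03 ± 0.07 without dark replicate 3, and at 0 h it was -0.09 ± 0.07 without lit replicate 2. Pcf11 overlaps 2 genes on the opposite strand, the antisense gene Gm26944 and 6430511E19Rik, and the strand setting of the counting is not given in the sources used here, so their reads cannot be fully told apart. Both had far fewer counts, with mean levels of 3.71 and 12.6 CPM. At 1 h relative to 0 h 6430511E19Rik had log2 fold changes of 0.46 ± 0.13 in lit LiTEC and 0.44 ± 0.13 in lit WT, the same sign as Pcf11. At 4 h its values were 0.38 ± 0.13 in lit LiTEC (edgeR adjusted p = 0.108) and 0.51 ± 0.13 in lit WT (adjusted p = 0.0122), opposite in sign to Pcf11. Gm26944 was called at neither time in either genotype.

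Zfc3h1 (chr10:115384959-115432772, plus strand) ran the other way. Its lit LiTEC libraries held 114, 123 and 122 CPM at 0 h, 102, 106 and 102 CPM at 1 h and 162, 144 and 156 CPM at 4 h. Its lit WT libraries held 126, 143 and 133 CPM at 0 h, 103, 108 and 110.5 CPM at 1 h and 151, 154 and 158 CPM at 4 h. The 3 times did not overlap in either genotype, with 1 h lowest and 4 h highest. At 4 h relative to 0 h the gene rose by a log2 difference of 0.37 ± 0.05 in LiTEC (edgeR adjusted p = 0.000109) and by 0.20 ± 0.05 in WT (adjusted p = 0.017). The WT call was lost without replicate 1 at 0 h (0.107) or replicate 3 at 4 h (0.0628), with no expression filter (0.083) and in a fit of the compared groups only (0.0642). At 1 h it fell, with log2 fold changes of -0.21 ± 0.05 in LiTEC (adjusted p = 0.0258) and -0.33 ± 0.05 in WT (adjusted p = 0.000191). The LiTEC call was lost without any one of the 6 libraries compared, with adjusted p of 0.0645 to 0.122. It was also lost with no batch term (0.0629), with no expression filter (0.153), in a fit of the compared groups only (0.101) and without the 2 libraries of the largest ribosomal RNA share (0.055).

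The dark group means of Zfc3h1 were 109 ± 5.11, 96.6 ± 5.85 and 141 ± 7.33 CPM at 0, 1 and 4 h in LiTEC. In dark WT cells they were 111 ± 2.03, 105 ± 4.99 and 151 ± 4.38 CPM (SD, n = 3 each). At 0 h the lit libraries lay above the dark ones, by 0.13 ± 0.05 in LiTEC and 0.28 ± 0.05 in WT on the log2 scale, with no overlap. Zfc3h1 shares 3135 bases with A130012E19Rik on the same strand, a gene with a mean of 7.40 CPM. That gene had a log2 fold change at 1 h of -0.54 ± 0.16 in lit LiTEC and -0.62 ± 0.16 in lit WT, the same sign as Zfc3h1. The 4 h values of A130012E19Rik were -0.61 ± 0.16 in lit LiTEC and -0.26 ± 0.15 in lit WT (edgeR adjusted p = 0.332), opposite in sign to Zfc3h1.

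Rsrp1 (chr4:134923592-134927671, plus strand) had the largest difference between lit and dark cultures at 1 h. It stood then at 130.1, 126 and 127 CPM in lit LiTEC libraries, against 84.5, 93.2 and 83.8 CPM in dark LiTEC libraries. Lit WT libraries held 113, 108 and 114 CPM, against 76.5, 82.5 and 82.8 CPM in dark WT libraries. Each lit library at 1 h lay above each dark library of its genotype, and the log2 light minus dark difference was 0.55 ± 0.06 in LiTEC and 0.47 ± 0.06 in WT. At the other times the log2 difference was near 0: it was 0.00 ± 0.06 in LiTEC and -0.03 ± 0.06 in WT at 0 h, and 0.01 ± 0.06 in LiTEC and 0.04 ± 0.06 in WT at 4 h. Within batches, the 1 h difference in LiTEC was 0.62 in batch 1 and 0.52 in batch 2, and in WT it was 0.57 in batch 1 and 0.42 in batch 2.

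Over time, Rsrp1 in lit LiTEC cells held 126, 122 and 120.2 CPM at 0 h and 179, 167 and 168 CPM at 4 h. Lit WT cells had 101, 91.8 and 106 CPM at 0 h and 154, 159 and 153 CPM at 4 h. The 4 h libraries lay above all earlier ones, and Rsrp1 rose by a log2 difference of 0.48 ± 0.06 in LiTEC (edgeR adjusted p = 4.8e-06) and 0.64 ± 0.06 in WT (adjusted p = 3.61e-09). At 1 h the log2 change from 0 h in lit cells was 0.06 ± 0.06 in LiTEC (adjusted p = 0.751) and 0.17 ± 0.06 in WT (adjusted p = 0.0988, and 0.049 without replicate 3 at 0 h). In dark cells the values at 0 h were 131, 120.4 and 117 CPM in LiTEC and 102, 103 and 100.0 CPM in WT, and those at 4 h were 157, 181 and 172 CPM in LiTEC and 149, 152 and 152 CPM in WT. All 6 dark libraries at 1 h were thus below all dark libraries at 0 h and 4 h of their genotype, with a 1 h minus 0 h log2 fold change of -0.49 ± 0.06 in LiTEC and -0.33 ± 0.06 in WT.

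Phf13 (chr4:151989633-151996258, minus strand) was the gene with the weakest change among lit libraries. In lit LiTEC cells it stood at 48.0, 53.1 and 45.8 CPM at 0 h, 40.2, 39.9 and 41.6 CPM at 1 h and 47.4, 52.3 and 50.0 CPM at 4 h. Lit WT cells held 40.6, 45.4 and 48.8 CPM at 0 h, 36, 39.8 and 35.0 CPM at 1 h and 42.8, 47.0 and 48.2 CPM at 4 h. The 1 h libraries were the lowest, and 0 h and 4 h overlapped. Neither change from 0 h passed: at 1 h minus 0 h the log2 values were -0.27 ± 0.09 in LiTEC (edgeR adjusted p = 0.114) and -0.28 ± 0.09 in WT (adjusted p = 0.0646, and 0.0329 with a replicate block, 0.0418 by DESeq2 and 0.0294 without the 2 libraries of the largest ribosomal RNA share). At 4 h minus 0 h they were 0.03 ± 0.09 in LiTEC (edgeR adjusted p = 0.931) and 0.04 ± 0.09 in WT (adjusted p = 0.86). At 4 h minus 1 h the log2 values were 0.30 ± 0.09 in LiTEC and 0.31 ± 0.09 in WT, with no overlap.

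Dark cells held less Phf13 at 0 h, with 37.3, 41.8 and 38.7 CPM in LiTEC and 31.6, 38.5 and 32.8 CPM in WT, each library below every lit library of its genotype. At 1 h the dark values were 33.4, 32.9 and 26.8 CPM in LiTEC and 27.7, 32.3 and 31.2 CPM in WT, again below the lit ones. At 4 h they were 51.0, 50.6 and 53.2 CPM in LiTEC and 41.8, 52.0 and 59.7 CPM in WT and overlapped the lit ones. Light minus dark was accordingly 0.32 ± 0.09, 0.39 ± 0.09 and -0.05 ± 0.09 on the log2 scale at 0, 1 and 4 h in LiTEC. The WT differences were 0.38 ± 0.09, 0.28 ± 0.09 and -0.15 ± 0.09. The LiTEC value at 1 h was 0.48 without dark replicate 1 and 0.27 without dark replicate 3. The 4 h minus 0 h log2 value was 0.40 ± 0.09 in dark LiTEC and 0.57 ± 0.09 in dark WT. Replicate 3 of dark WT cells at 4 h, the library with the largest ribosomal RNA share, held the highest Phf13 value of all 36 libraries. Without the 2 libraries of the largest share, dark WT Phf13 had a 4 h minus 0 h log2 value of 0.46 ± 0.09 and its light minus dark difference at 4 h was -0.04 ± 0.09.

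Trim11 (chr11:58978093-58991458, plus strand) held 33.2, 34.4 and 36.2 CPM at 0 h, 30.6, 30.8 and 28.9 CPM at 1 h and 44.0, 43.0 and 40.6 CPM at 4 h in lit LiTEC cells. It held 36.9, 35.9 and 32.5 CPM at 0 h, 29.8, 28.1 and 30.5 CPM at 1 h and 47.4, 47.9 and 41.0 CPM at 4 h in lit WT cells. The times did not overlap in either genotype. At 4 h it rose, by a log2 difference of 0.30 ± 0.07 in LiTEC (edgeR adjusted p = 0.0214) and by 0.37 ± 0.07 in WT (adjusted p = 0.00125). The LiTEC call was lost without replicate 1 (0.139) or 2 (0.0566) at 0 h or replicate 1 (0.0835) or 2 (0.0758) at 4 h, without the 2 libraries of the largest ribosomal RNA share (0.12), with no batch term (0.0541) and with no expression filter (0.0599). At 1 h the log2 value was -0.20 ± 0.08 in LiTEC (adjusted p = 0.183), and Trim11 fell in WT (-0.25 ± 0.08, adjusted p = 0.0431). That call was lost without replicate 1 or 2 at 0 h or at 1 h (adjusted p of 0.136 to 0.167), with no batch term (0.073), with no expression filter (0.16) and in a fit of the compared groups only (0.185).

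In dark cells Trim11 averaged 30.8 ± 0.796, 25.2 ± 1.5 and 41.3 ± 1.54 CPM at 0, 1 and 4 h in LiTEC. The dark WT means were 28.7 ± 2.64, 25.1 ± 0.842 and 40.9 ± 3.71 CPM (SD, n = 3 each). Lit libraries lay above dark ones with no overlap at 0 h and at 1 h in both genotypes, with log2 light minus dark values of 0.17 ± 0.08 and 0.25 ± 0.08 in LiTEC and 0.29 ± 0.07 and 0.23 ± 0.08 in WT at 0 and 1 h.

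Ankrd52 (chr10:128377115-128408704, plus strand) held 79.4, 70.3 and 74.8 CPM at 0 h, 64.9, 64.9 and 66.5 CPM at 1 h and 100.3, 87.6 and 94.0 CPM at 4 h in lit LiTEC cells. Lit WT cells had 86.5, 78.5 and 73.3 CPM at 0 h, 67.5, 68.0 and 58.9 CPM at 1 h and 101, 89.2 and 92.7 CPM at 4 h. Again 1 h was lowest and 4 h highest with no overlap. The gene rose at 4 h by a log2 difference of 0.33 ± 0.06 in LiTEC (edgeR adjusted p = 0.0024) and by 0.25 ± 0.06 in WT (adjusted p = 0.0118). Its WT call was lost without replicate 3 at 0 h (0.0545) or replicate 1 at 4 h (0.0591) and with no batch term (0.0613). At 1 h the LiTEC log2 value was -0.19 ± 0.06 (adjusted p = 0.112), and the gene fell in WT, with a log2 fold change of -0.29 ± 0.06 (adjusted p = 0.00344, and 0.0744 in a fit of the compared groups only).

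Dark means of Ankrd52 were 72.8 ± 3.90, 64.6 ± 2.51 and 92.2 ± 7.28 CPM at 0, 1 and 4 h in LiTEC and 69.7 ± 1.21, 68.5 ± 2.99 and 95.8 ± 7.17 CPM in WT (SD, n = 3 each). Light minus dark on the log2 scale was 0.04 ± 0.06, 0.02 ± 0.06 and 0.03 ± 0.06 at 0, 1 and 4 h in LiTEC. In WT it was 0.19 ± 0.06, -0.08 ± 0.06 and -0.02 ± 0.06. Ankrd52 shares 7310 bases with Nabp2 on the opposite strand, so its counts are uncertain where the counting ignored strand. Nabp2 itself, with a mean of 31.5 CPM, had a 4 h minus 0 h log2 fold change of 0.07 ± 0.13 in lit LiTEC and -0.04 ± 0.12 in lit WT.

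Polk (chr13:96480690-96542579, minus strand) was among the least abundant of the 9 per length, at a mean level of 6.10 CPM per kb, and shares 388 bases with Gm17622 on the opposite strand, which did not pass the filter. Its lit LiTEC values were 33.8, 29.8 and 35.4 CPM at 0 h, 31.3, 30.7 and 30.1 CPM at 1 h and 47.7, 45.4 and 42.3 CPM at 4 h. Its lit WT values were 37.1, 34.9 and 31.3 CPM at 0 h, 30.3, 28.0 and 31.7 CPM at 1 h and 41.9, 43.3 and 36.7 CPM at 4 h. The 4 h libraries lay above the others in LiTEC, and in WT replicate 3 at 4 h fell within the 0 h range. Polk rose at 4 h in LiTEC, by a log2 difference of 0.45 ± 0.08 (edgeR adjusted p = 0.00211), and the WT value was 0.24 ± 0.08 (adjusted p = 0.0782, and 0.0352 with a replicate block). At 1 h the log2 values were -0.11 ± 0.09 in LiTEC (adjusted p = 0.665) and -0.20 ± 0.09 in WT (adjusted p = 0.213). In dark cells at 1 h Polk stood at 27.5, 23.8 and 21.9 CPM in LiTEC and 27.6, 24.6 and 21.1 CPM in WT, every library below the lit ones, and light minus dark on the log2 scale was 0.33 ± 0.09 in LiTEC and 0.30 ± 0.09 in WT. Dark means at 0 h were 31.8 ± 1.12 CPM in LiTEC and 30.1 ± 4.00 CPM in WT, and at 4 h they were 44.9 ± 3.03 CPM and 36.8 ± 3.90 CPM (SD, n = 3 each).

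Slc9a8 (chr2:167421712-167477000, plus strand) peaked at 1 h in every genotype and light condition. In lit LiTEC cells it stood at 32.1, 30.2 and 31.1 CPM at 0 h, 41.1, 48.9 and 41.2 CPM at 1 h and 36.9, 32.8 and 30.6 CPM at 4 h. Lit WT libraries had 38.3, 32.3 and 30.6 CPM at 0 h, 55.4, 47.8 and 45.2 CPM at 1 h and 43.1, 39.0 and 39.6 CPM at 4 h. The 1 h libraries overlapped no other time. Slc9a8 rose at 1 h by a log2 difference of 0.49 ± 0.08 in LiTEC (edgeR adjusted p = 0.000332) and by 0.55 ± 0.08 in WT (adjusted p = 3.02e-05). At 4 h the log2 value relative to 0 h was 0.10 ± 0.08 in LiTEC (adjusted p = 0.622) and 0.26 ± 0.08 in WT (adjusted p = 0.0365). The WT call was lost without any one of 5 of the 6 libraries compared (all but replicate 1 at 0 h), with adjusted p of 0.0834 to 0.13, and likewise with no batch term (0.111), with no expression filter (0.083) and in a fit of the compared groups only (0.069).

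Dark cells held more Slc9a8 at 0 h, with 43.8, 43.8 and 39.0 CPM in LiTEC and 38.6, 39.4 and 41.0 CPM in WT, each library above every lit library of its genotype. At 1 h they held 51.8, 57.8 and 53.7 CPM in LiTEC and 58.4, 52.9 and 54.4 CPM in WT, and at 4 h 37.1, 33.0 and 32.5 CPM in LiTEC and 39.3, 34.3 and 35.4 CPM in WT. The log2 light minus dark difference at 0 h was -0.44 ± 0.08 in LiTEC and -0.24 ± 0.08 in WT, where it was -0.01 in batch 1 and -0.35 in batch 2. At 1 h it was -0.32 ± 0.08 in LiTEC, with no overlap, and -0.16 ± 0.08 in WT, where lit and dark libraries overlapped. At 4 h it was -0.03 ± 0.08 in LiTEC and 0.16 ± 0.08 in WT. For the log2 change of 4 h minus 0 h, the sign in dark cells (-0.31 ± 0.08 in LiTEC and -0.13 ± 0.08 in WT) was opposite to that in lit cells. Within batches the dark WT value was 0.02 in batch 1 and -0.20 in batch 2, so that the sign was opposite in batch 2 and not in batch 1. The difference of lit and dark changes was not tested.

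**Figure D2:**
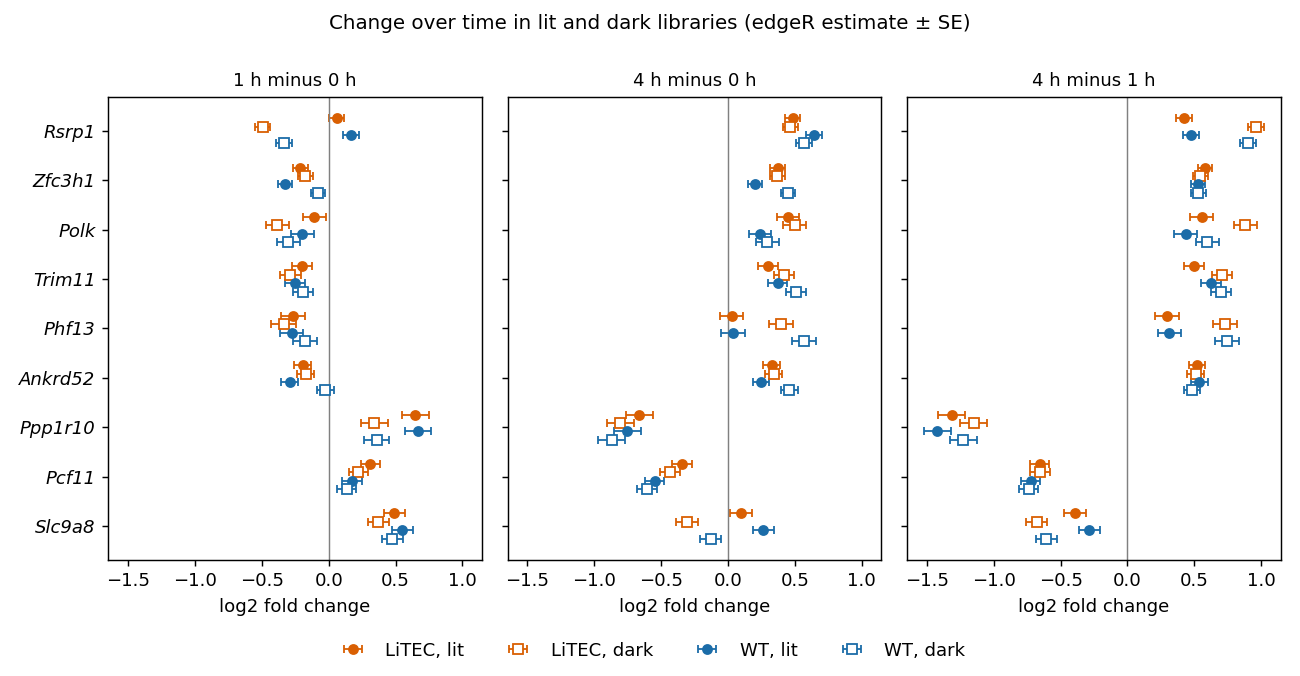
Log2 fold change over time of each of the 9 genes (x axis, edgeR estimate ± SE) for 1 h minus 0 h, 4 h minus 0 h and 4 h minus 1 h, with LiTEC in orange, WT in blue, filled circles for lit and open squares for dark libraries. Ppp1r10 sits lowest at 4 h minus 1 h, at -1.31 ± 0.10 in lit LiTEC and -1.42 ± 0.10 in lit WT, and at 1 h minus 0 h Rsrp1 lies at 0.06 ± 0.06 in lit LiTEC and 0.17 ± 0.06 in lit WT, against -0.49 ± 0.06 in dark LiTEC and -0.33 ± 0.06 in dark WT.

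Counted over the lit libraries, 4 of the 9 genes were called at 1 h minus 0 h in LiTEC, where the background was 2.41%: Ppp1r10, Pcf11 and Slc9a8 rose and Zfc3h1 fell. The light effect was in view when the genes were chosen, so these counts and those below are not independent of that choice. In WT 5 of 9 were called, with a background of 4.95% (900 genes, and 1389 with a replicate block): Ppp1r10 and Slc9a8 rose, and Zfc3h1, Trim11 and Ankrd52 fell. At 4 h minus 0 h, 7 of 9 were called in LiTEC, with a background of 2.79% (508 genes, and 1045 with a replicate block): Rsrp1, Zfc3h1, Polk, Trim11 and Ankrd52 rose, and Ppp1r10 and Pcf11 fell. In WT 7 of 9 were called at 4 h, with a background of 7.87% (1431 genes, and 2294 with a replicate block): Rsrp1, Zfc3h1, Trim11, Ankrd52 and Slc9a8 rose, and Ppp1r10 and Pcf11 fell. Every one of these called changes had the same sign in batch 1 and in batch 2. The calls came from a fit of both batches, and batch 1 has 1 library a group, so the shared signs are no independent support. The genes not called shared their signs as well, apart from Phf13 at 4 h in LiTEC. In batch 2 alone the calls numbered 1 and 2 in LiTEC and 3 and 3 in WT at 1 and 4 h. Over all genes, 133 and 42 of 18049 were called in LiTEC in that fit, and 238 and 298 in WT. The ribosomal RNA share at 0 h was higher in lit LiTEC cells (11.3% to 18.2%) than at 4 h (10.8% to 11.1%). Without the 2 libraries of the largest share the calls numbered 3 and 6 in LiTEC, where 274 and 299 of 18557 genes were called. In WT they numbered 6 and 7. The count over all genes in that fit is not given here for WT, so those calls have no background beside them.

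Among dark libraries, whose changes chose the genes, the log2 change of 4 h minus 0 h ran from -0.81 ± 0.10 for Ppp1r10 to 0.50 ± 0.08 for Polk in LiTEC. In WT it ran from -0.87 ± 0.10 for Ppp1r10 to 0.57 ± 0.06 for Rsrp1. That of 1 h minus 0 h ran from -0.49 ± 0.06 for Rsrp1 to 0.37 ± 0.08 for Slc9a8 in LiTEC. The WT range was -0.33 ± 0.06 for Rsrp1 to 0.48 ± 0.08 for Slc9a8. Between 4 h and 1 h the log2 change in dark cells was 0.96 ± 0.06 in LiTEC and 0.90 ± 0.06 in WT for Rsrp1, and -1.15 ± 0.10 in LiTEC and -1.23 ± 0.10 in WT for Ppp1r10. The corresponding lit values for Rsrp1 were 0.42 ± 0.06 in LiTEC and 0.48 ± 0.06 in WT.

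**Figure D3:**
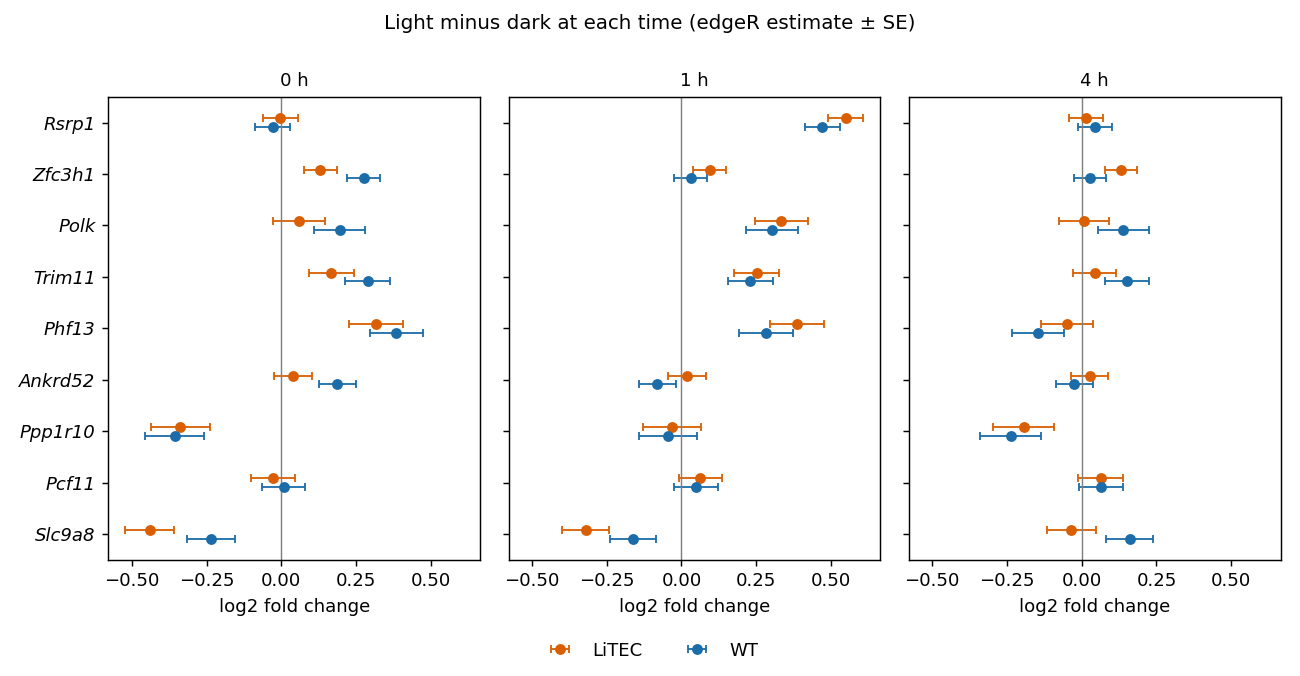
Log2 light minus dark difference of each of the 9 genes (x axis, edgeR estimate ± SE) at 0, 1 and 4 h, with LiTEC in orange above WT in blue. Slc9a8 and Ppp1r10 lie left of 0 and Phf13 right of 0 at 0 h, Rsrp1 lies farthest right at 1 h (0.55 ± 0.06 in LiTEC and 0.47 ± 0.06 in WT), and at 4 h no gene exceeds 0.24 in size.

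LiTEC and WT were then set against each other among lit libraries, as the mean over the 3 times. Of the 9 genes 4 were called, close to the background of 43.4% of all tested genes, so this count does not set the 9 apart. Rsrp1 was higher in LiTEC by a log2 fold change of 0.21 ± 0.03 (edgeR adjusted p = 3.17e-06) and Slc9a8 lower, at a log2 value of -0.19 ± 0.05 (adjusted p = 0.000951). Phf13 was higher, at 0.13 ± 0.05 (adjusted p = 0.0443), and Ppp1r10 lower, at -0.15 ± 0.06 (adjusted p = 0.035). The Phf13 call was lost without any one of 13 of the 18 libraries, which leaves replicate 3 at 0 h and replicate 2 at 1 h in LiTEC and replicate 3 at 0 h and replicates 1 and 2 at 1 h in WT as those without which it held (adjusted p of 0.0525 to 0.103 where lost). It was also lost with no batch term (0.102) and with no expression filter (0.0732). The Ppp1r10 call was lost without any one of 8 libraries (LiTEC replicate 1 at 0 h, replicate 2 at 1 h and replicates 1 and 2 at 4 h; WT replicates 1 and 3 at 0 h, replicate 3 at 1 h and replicate 3 at 4 h), with adjusted p of 0.0514 to 0.0872, with no batch term (0.0532) and without the 2 libraries of the largest ribosomal RNA share (0.0678). Zfc3h1, at -0.07 ± 0.03 (adjusted p = 0.0603), passed with a replicate block (0.0449), by DESeq2 (0.046), in batch 2 alone (0.0385) and without LiTEC replicate 1 at 4 h (0.0131) or WT replicate 1 (0.0491) or 3 (0.0494) at 0 h. Rsrp1 in lit cells averaged 123 ± 2.86 CPM in LiTEC and 99.6 ± 7.34 CPM in WT at 0 h, 128 ± 2.06 CPM and 112 ± 3.03 CPM at 1 h, and 171 ± 6.93 CPM and 155 ± 3.23 CPM at 4 h (SD, n = 3 each). At every time each lit LiTEC library had more Rsrp1 than each lit WT library. Marker sums differed between the genotypes too: 4 primitive endoderm markers summed to 4.76 to 7.74 CPM in lit LiTEC and 2.67 to 4.43 CPM in lit WT libraries, and 6 fibroblast markers to 2.52 to 6.37 CPM in lit LiTEC and 4.82 to 8.48 CPM in lit WT libraries. Of 4 markers of cells like those of the early embryo at the 2-cell stage the sum was 4.08 to 24.2 CPM in lit LiTEC and 0 to 2.20 CPM in lit WT libraries. Their part in these differences was not tested.

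A difference of the lit time course between the genotypes was tested by the interaction of genotype and time. None of the 9 genes was called by edgeR (background 0.011%, 2 genes), none had an unadjusted p under 0.05 where 830 genes did, and DESeq2, which called 5 genes, called none of the 9.

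The partners of these genes were described from lists chosen with earlier results of these data known, and the 9 genes were left out of the counts. Values are log2 fold changes ± SE relative to 0 h, and a gene was called at an edgeR adjusted p below 0.05. Of all tested genes, 2.41% were called at 1 h and 2.79% at 4 h in lit LiTEC cells. In lit WT cells the shares were 4.95% at 1 h and 7.87% at 4 h. Calls in each list below stand beside these shares, and no list was tested against them. Among 22 genes of cleavage and polyadenylation, the machinery that Pcf11 belongs to, none was called in lit LiTEC cells at 1 h or 4 h. In lit WT cells at 4 h 2 rose, Cpsf4 (0.23 ± 0.07) and Cpsf1 (0.19 ± 0.06), subunits of the cleavage complex, and 1 fell, Rbbp6 (-0.27 ± 0.07), while Scaf4, a termination factor, fell at 1 h (-0.19 ± 0.05). The median log2 change of the list at 4 h was 0.002 in LiTEC, where that of all genes was -0.010, and 0.001 in WT, where that of all genes was -0.009. None of the 5 partners of Ppp1r10, which include the catalytic subunits of protein phosphatase 1, was called at either time in either genotype, and their medians at 4 h were -0.07 in LiTEC and -0.03 in WT. Among 20 measured genes of the exosome and its adaptors, with which ZFC3H1 acts, none was called in LiTEC, and in WT at 4 h Exosc4 rose (0.45 ± 0.10) and Exosc3 fell (-0.37 ± 0.11).

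The list of SR proteins, related genes and their kinases, set beside Rsrp1, had the most called genes and was also the longest list. Of 26 measured, 5 rose and none fell in lit LiTEC cells at 1 h, where 1.41% of all tested genes rose: Rbm25 (0.30 ± 0.06), Luc7l2 (0.29 ± 0.06), Srsf10 (0.22 ± 0.04), Srsf11 (0.21 ± 0.05) and Luc7l (0.20 ± 0.05). In lit WT cells at 1 h 4 rose, the SR protein kinase gene Clk1 (0.36 ± 0.06), Srsf10 (0.24 ± 0.04), Luc7l (0.23 ± 0.05) and Luc7l2 (0.23 ± 0.06), where 2.65% of all tested genes rose, and 2 fell, Clk3 (-0.34 ± 0.07) and Tra2a (-0.26 ± 0.06). At 4 h 3 rose in LiTEC, Pnisr (0.40 ± 0.07), Srsf5 (0.34 ± 0.06) and Rbm25 (0.25 ± 0.06), and Tra2b fell (-0.20 ± 0.05). In WT at 4 h Srsf6 rose (0.26 ± 0.07) and Tra2b (-0.31 ± 0.05) and Tra2a (-0.20 ± 0.06) fell. The list medians at 4 h were 0.07 in LiTEC and -0.02 in WT.

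The lists of the other members held few calls. Of 7 translesion synthesis genes Rev1, the scaffold polymerase of that pathway, rose at 4 h in lit LiTEC cells (0.36 ± 0.06), and in lit WT cells Poli fell at 4 h (-0.41 ± 0.11), Polh fell at 1 h (-0.40 ± 0.11) and Pcna rose at 1 h (0.17 ± 0.05). Of 6 protein phosphatase 6 genes Ppp6r2 rose at 4 h in LiTEC (0.51 ± 0.11) and none was called in WT.

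**Figure D4:**
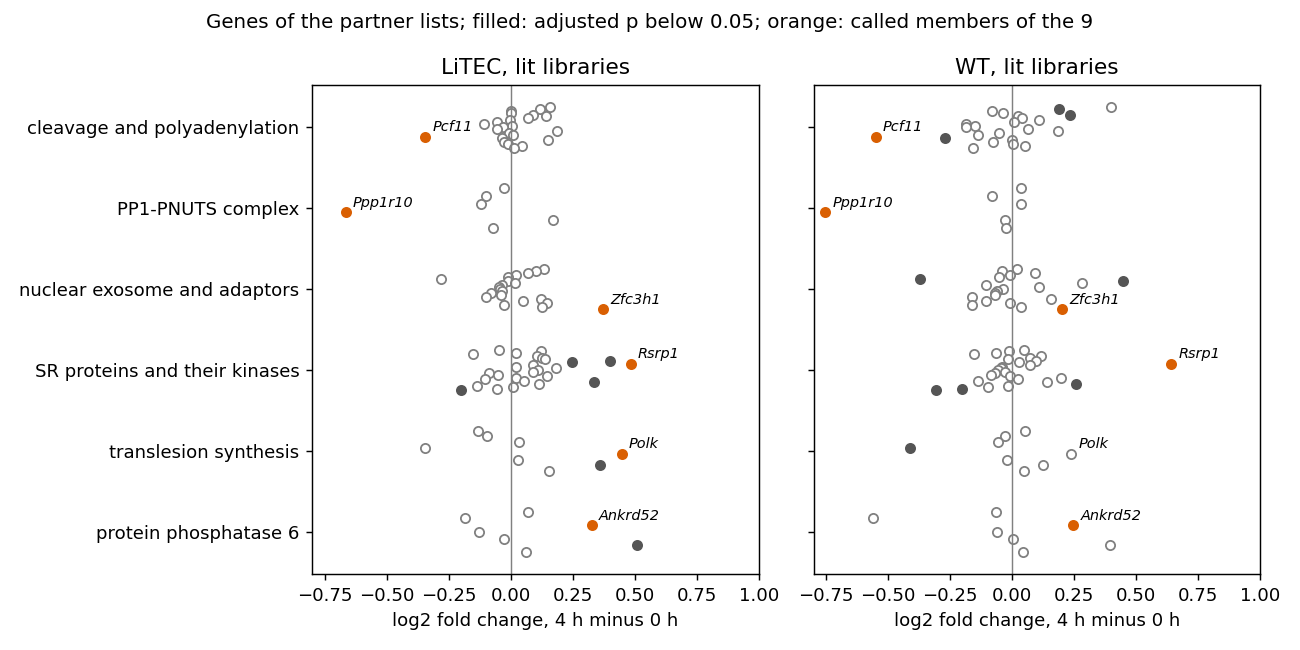
Log2 fold change of 4 h minus 0 h in lit libraries (x axis) for each gene of 6 partner lists (rows), in LiTEC on the left and WT on the right; filled symbols have an edgeR adjusted p below 0.05, and the genes of the 9 are named, in orange where called. Ppp1r10 (-0.66 ± 0.10 in LiTEC and -0.75 ± 0.10 in WT) lies left of the other genes of its complex, and Rsrp1 (0.48 ± 0.06 in LiTEC and 0.64 ± 0.06 in WT) right of the other genes of its list.

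Profiles were taken over the 12 group means of log2 CPM, with no correction for batch. They are given as a description, since the courses were read from the same means. The dark groups also served to choose the genes. Pearson's r over these 12 points, which share libraries and depth, was 0.98 between Zfc3h1 and Ankrd52, 0.96 between Zfc3h1 and Trim11 and 0.95 between Polk and Trim11. Ppp1r10 and Pcf11 had an r of 0.95, and Slc9a8 followed them less closely, with 0.75 to Ppp1r10 and 0.62 to Pcf11. Across the courses the sign was negative, as for Pcf11 and Ankrd52 (-0.96) and for Ppp1r10 and Ankrd52 (-0.96). The mean standardised profile of the 9 genes was that of the genes highest at 4 h: their r with it was 0.89 to 0.97, while Ppp1r10 (-0.89), Pcf11 (-0.85) and Slc9a8 (-0.66) ran against it. Each gene is part of this mean, and most of the 9 were highest at 4 h, so these signs were largely set beforehand. Set beside this mean, 6 others with a mean of at least 5 CPM were the most alike of 9760 searched: Traf4 (r of 0.97), Mllt1 (0.97), Nab2 (0.97), Mdm4 (0.96), Ndel1 (0.96) and Cramp1l (0.95). Their 4 h minus 0 h log2 values in lit cells ran from 0.14 for Mllt1 to 0.37 for Nab2 in LiTEC.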

How the data were processed

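RNA of 36 libraries was sequenced from TRIzol extracts with a stranded poly(A) mRNA kit, per the labels' protocols. The authors deposited raw counts per gene, whole numbers that are not normalized; FastQC and featureCounts and the build mm10 (GRCm38) are named in the submitters' processing notes. Which aligner, strand setting or version was used is not given in the sources used here. The 9 genes and the partner lists were chosen with earlier results of these data known, so agreement with those results is no independent support.

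Genes were kept with filterByExpr (minimum count 10), which left 18193 of 54842, scaled by TMM and fitted with edgeR 4.0.16 (limma 3.58.1, R 4.3.3): quasi-likelihood, 12 group means plus batch, 23 residual degrees of freedom, Benjamini-Hochberg over all tested genes, called below 0.05. The code was tested on simulated data. CPM use TMM-scaled library sizes. Likeness, within-batch and pairing values are log2(CPM + 0.5). The rule named at most 4 called genes a list by smallest p; further called list genes were named after their values were seen, to complete small counts. A further partner list is not reported here. Replicate pairs of a group differed by more than counting noise (chi-square per degree of freedom 4.07 to 158), so none was merged.

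The labels tie replicate 1 to batch 1, and same-numbered libraries deviated together (median r of 0.59, lowest 0.0667, over 198 pairs of groups). That r includes the difference between batches. Within batch 2, with deviations taken within the batch, the median r was 0.43 and the lowest 0.25, over 132 pairs. The main fit held a batch term and did not pair the libraries of batch 2 by number. The numbers were taken to pair the samples in the replicate block alone. Alternatives were a replicate block, no batch term, batch 2 alone, RLE factors, DESeq2 1.42.0, other filters, compared groups only, no ribosomal RNA loci and leaving out each library; 4 h minus 1 h and a fit without the 2 libraries of the largest ribosomal RNA share were chosen after seeing the data.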

Additional observations from a re-analysis of the deposited data

Results flagged for a closer look

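Between 0 h and 1 h the lit change of Rsrp1 passed in neither genotype (edgeR adjusted p = 0.751 in LiTEC and 0.0988 in WT), while its values in dark libraries had the opposite sign. The log2 fold change of 1 h minus 0 h was 0.059 in lit LiTEC cells and -0.49 in dark LiTEC cells, and it was 0.17 in lit WT cells and -0.33 in dark WT cells. In LiTEC every lit library at 1 h lay above every lit library at 0 h, and every dark library at 1 h below every dark library at 0 h, and the same held in WT. The difference was not tested, since the dark libraries served to choose the gene.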

How the results depend on the processing

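The number of the 9 genes called at 1 h minus 0 h in lit LiTEC cells (4) was 2 with no batch term and 1 in batch 2 alone, and 2 to 3 when 1 library was left out. At 4 h it was 7, and 2 in batch 2 alone. In lit WT cells 5 at 1 h became 3 in batch 2 alone and 3 in a fit of the compared groups only, and 7 at 4 h became 3 in batch 2 alone. For LiTEC minus WT, 4 became 2 with no batch term, and 2 to 4 when 1 library was left out. Genes called over all tested ones, with a replicate block, no batch term and batch 2 alone in that order, were 2382, 633 and 302 for the lit time course in LiTEC (1420), 3617, 1219 and 605 in WT (2352), 1045, 159 and 42 for 4 h in LiTEC (508), 1389, 513 and 238 for 1 h in WT (900) and 2294, 601 and 298 for 4 h in WT (1431). For 1 h in LiTEC (439) they were 250 with no batch term, 133 in batch 2 alone, 276 at a mean of at least 5 CPM and 274 without the 2 libraries of the largest ribosomal RNA share, which gave 299 for 4 h in LiTEC. A fit of the compared groups only gave 374 for 1 h and 823 for 4 h in WT. With 1 library left out the counts ran from 909 to 1335 (time course, LiTEC), 214 to 355 (1 h, LiTEC), 217 to 369 (4 h, LiTEC), 484 to 794 (1 h, WT) and 777 to 1343 (4 h, WT). For the difference of the lit time course (2 genes) they were 5 with a replicate block, 0 in batch 2 alone, 5 by DESeq2, 66 with no expression filter, and 1 to 2 with 1 library left out. Batch 2 alone has fewer samples; the cause of the other shifts was not tested. The 1 value that reversed was Phf13 at 4 h minus 0 h in lit LiTEC cells (0.03), which ran from -0.038 without replicate 3 at 0 h to 0.067 without replicate 1 at 0 h. RLE factors and leaving out the ribosomal RNA loci changed no count of the 9 genes, and the replicate block ended no call of theirs. With 3 libraries a group, SEs of 0.05 to 0.10 limit what a log2 change over time under about 0.2 can show.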

Other observations

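Single genes had profiles close to those of single members over the 12 group means, given as descriptions and chosen after the values were seen. Rsrp1 was closest to Fam102a (Pearson's r of 0.97), Trim11 to Nab2 (0.98), Ankrd52 to Lzts2 (0.98) and Polk to Mllt1 (0.98). Ppp1r10 was closest to Id3 (0.96), a target of BMP signalling, whose 4 h minus 0 h log2 values were -1.26 in lit LiTEC and -1.17 in lit WT. Pcf11 was closest to Slfn9 (0.98), Phf13 to Lnx2 (0.97) and Slc9a8 to Abcb1b (0.95). Klf15, also close to Ankrd52 (0.96), had 0.49 in lit LiTEC and 0.46 in lit WT at 4 h minus 0 h.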
